A study of Mus musculus with 6 samples.

Results

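The genes described here are 44 interferon-stimulated genes, chosen by name from a list and matched by Ensembl identifier among the 55487 genes of a count table of mouse muscle stem cells. All 44 were matched. They were compared between 3 control libraries and 3 knockout (KO) libraries, all from 10-week-old mice whose muscle had been injured 60 h earlier with CTX (cardiotoxin, a venom toxin that destroys fibres and so starts their repair). The control mice were labelled WT and were given oil, and the KO mice were labelled as Setdb1 knockouts and were given tamoxifen, a drug used to switch on inducible recombinases. Genotype and tamoxifen changed together, so their effects cannot be told apart. The labels name neither the recombinase nor the promoter that drives it, and they call the libraries of each group biological replicates without saying whether animals were pooled. Setdb1 encodes an enzyme that methylates histone H3 and silences retroelements, and muscle stem cells are the resident precursors that rebuild fibres.

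Interferons are secreted signals of viral infection. Type I interferons bind the receptor chains Ifnar1 and Ifnar2, which act through the kinases Jak1 and Tyk2 to assemble a transcription factor, with Stat2 and Irf9 among its subunits, that binds the interferon-stimulated response element (ISRE) in the promoters of its targets. The targets include sensors of viral RNA, enzymes that degrade or modify RNA and nucleotides, and proteins that tag or block viral components. Cells can make interferon when double-stranded RNA or DNA from retroelements reaches the sensors, which is why these genes are often examined when a silencing enzyme is lost.

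Promoter sequences were available for 32 of the 44 genes in a RefSeq table (GRCm38.p6), each window running from 250 bases before the transcription start to 50 bases after it. The core of the ISRE, which is GAAA, any 2 bases and GAAA again, was searched on both strands, and overlapping matches were kept. It was found in 18 of the 32 windows' genes (56.2%), against 3.99% of the 27025 genes of the table and 3.44% of its 32851 windows. Of the genes with enough counts to be tested, 10 of 19 held the core, and of those with too few counts, 8 of 13 did. The core of the other interferon element, the gamma-activated site (GAS; TTC, any 3 bases and GAA, the same on either strand), was present for 7 of the 32 genes (21.9%) and for 9.55% of all genes. Irf1 was among the 7, and its window held no ISRE core.

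The sequences below show how the ISRE core lies in the windows of 4 genes with the smallest unadjusted p that hold it, followed by 2 others, Ifit1 and Isg15, added later because their cores stand in series. Each is printed along its gene's strand, 5′ to 3′, and capitals mark the ISRE core, which reads as TTTC, any 2 bases and TTTC where the match is on the opposite strand. Rsad2 is shown at chr12:26456483-26456602, Ddx58 at chr4:40239804-40239833, Ifih1 at chr2:62646206-62646235, Ifi205 at chr1:174031800-174031919 and Isg15 at chr4:156200819-156200938, all on the minus strand, and Ifit1 at chr19:34640755-34640874 on the plus strand.
Rsad2: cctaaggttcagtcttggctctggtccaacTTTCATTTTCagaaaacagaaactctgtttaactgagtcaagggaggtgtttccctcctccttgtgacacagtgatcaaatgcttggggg
Ddx58: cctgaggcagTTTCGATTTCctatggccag
Ifih1: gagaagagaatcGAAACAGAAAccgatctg
Ifi205: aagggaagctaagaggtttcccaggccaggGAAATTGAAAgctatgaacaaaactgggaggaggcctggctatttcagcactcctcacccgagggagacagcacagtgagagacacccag
Ifit1: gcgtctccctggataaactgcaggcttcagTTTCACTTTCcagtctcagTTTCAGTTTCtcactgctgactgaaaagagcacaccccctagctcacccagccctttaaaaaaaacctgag
Isg15: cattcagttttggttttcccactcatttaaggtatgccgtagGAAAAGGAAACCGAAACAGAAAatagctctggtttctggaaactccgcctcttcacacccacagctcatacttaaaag
In Isg15, 3 cores overlapped in 1 run, and in Ifit1, 2 cores stood apart. In Rsad2 the core began 120 bases before the start, and in Ddx58 it lay just past the start. These matches describe the letters of the windows and no binding was measured.

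Libraries held 4052569 to 5690844 counts, of which 2002124 to 3050460 fell in protein-coding genes, so 1 count was worth between 0.185 and 0.266 CPM (counts scaled to a common library size after TMM normalisation). Setdb1 itself gave 34.9, 40.5 and 32.1 CPM in control against 16.5, 12.7 and 14.7 CPM in KO libraries. Its log2 fold change was -1.30 (SE 0.16, and -1.38 without KO library 1), with a Benjamini-Hochberg adjusted p of 2.092e-04 in edgeR's quasi-likelihood test. That test is behind every adjusted p below unless DESeq2 or limma-voom is named. Pax7, the defining marker of muscle stem cells, averaged 26.9 CPM in both groups. Summed over 10 markers, the muscle stem cell level was 1281 to 1366 CPM in control and 1461 to 1880 CPM in KO libraries. This sum rose mainly with Myod1 (mean 142 and 292 CPM) and Des (371 and 510 CPM). Of the 10, 6 had a positive and 4 a negative log2 fold change, against 50.9% positive over all tested genes. Only 1, the commitment factor Myod1, was called higher in KO cells.

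KO library 1 stood apart. It held at least 1 count in 30363 genes, against 18737 to 19951 in the other 5 libraries, although its total was the smallest. Olfactory receptor genes, most of which are transcribed mainly in the nose, were checked after this was seen. Of 1093 such genes, 888 had a count in KO library 1 and 103 to 167 in the others. Their summed level per kilobase of exon was 0.190 CPM in KO library 1 and 0.00877 to 0.0140 CPM in the others. In that library 16 of the 22 untested interferon-stimulated genes lay above 0.190 CPM per kilobase, some by little, such as Usp18 at 0.191 on 2 counts. All 22 tested ones lay above it, but those were selected for having enough counts. The share of other genes above that level was not computed. The counts of members and the fold changes of those tested are therefore also given without KO library 1, and the part of this broad low signal in the results was not tested.

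Neutrophil transcripts set other libraries apart. S100a9, whose protein neutrophils carry in bulk, gave 3406 counts for control library 3 and 0 for each other control. Among KO libraries 1 to 3 it gave 2, 1051 and 385. The summed level of 12 neutrophil markers followed the same split, with 2106 CPM in control library 3, 743 CPM in KO library 2, 281 CPM in KO library 3 and 3.34 to 5.59 CPM in the remaining 3. Macrophage and monocyte markers (15 genes, all with counts) summed to 12.7 to 133 CPM in control and 21.3 to 62.0 CPM in KO libraries, with the highest value in control library 3. Of these 15, 6 had more counts in the KO and 9 in the control libraries, and C1qa, with 5 control counts, was at 0 in every KO library. The macrophage sum was led by Lyz2 and Ly6c2, of which Ly6c2 was at 0 in control libraries 1 and 2. The 15 did not all follow the sum. In control libraries 1 to 3, Lyz2 had 48, 18 and 412 counts, but Csf1r had 5, 8 and 4. Lymphocyte markers (9 of 10 with counts) summed to 0.626 to 3.51 CPM in control and 1.76 to 4.52 CPM in KO libraries. Fibro-adipogenic progenitor markers, led by Col1a1 and Col3a1, summed to 570 to 1328 CPM in control and 1183 to 1748 CPM in KO libraries. All 8 had more counts in the KO libraries. The 6 tested all had positive log2 fold changes (median 0.54), against 50.9% of all tested genes, and 0 were called. Endothelial markers, led by Eng and Tek, summed to 6.05 to 13.6 and 11.9 to 17.0 CPM, with 5 of 8 holding more KO counts and 3 fewer. Among 6 markers of plasmacytoid dendritic cells, a cell type known for making interferon, Runx2 held most of the counts, with 726 in control and 539 in KO libraries. Siglech had 3 counts in each group, Ccr9 had 0 and 14, of which KO library 1 held 13, and Spib had 2 and 5. Klk1 had 0 and 2 and Cox6a2 0 and 1. With these markers so scarce, the counts of Runx2 cannot be assigned to this cell type. The part of these cells in the values below was not tested, and in bulk libraries fewer cells of a type and less RNA per cell cannot be told apart.

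Of the 44 listed interferon-stimulated genes, none passed the test between KO and control cells. Their transcripts were scarce in both groups: 22 of the 44 genes had enough counts to be tested, and the other 22 fell below edgeR's default filter on low counts. Of the 22 tested, 0 were called in edgeR and 0 in limma-voom. DESeq2, which filters by itself, tested 30 members and called 0 of them, where it called 184 of 13910 genes. In edgeR 318 of 11224 tested genes (2.83%) were called, and 2.22% were called higher in KO. At an unadjusted p under 0.05, 3 members were higher in KO (Irf9, Rsad2 and Ddx58) and 0 were lower, against 10.1% of all tested genes higher. DESeq2 placed 1 of its 30 members and limma-voom 2 of 22 at that level, and the share of all genes was not computed for either. Without KO library 1, 0 members were called, and 2 (Irf9 and Rsad2) were higher at that level, against 7.53% of all tested genes. With the 3 libraries that hold S100a9 removed, only KO library 1 was left to stand against control libraries 1 and 2. In that comparison 3 of 29 tested members (Ifi27, Oasl1 and Parp14) were called, all higher, where 1282 of 12155 genes (10.5%) were called and 5.27% were called higher.

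The fold changes of the tested genes lay on the KO side but were small. A positive log2 fold change was measured in 21 of 22, against 50.9% of all tested genes, and the median was 0.33, against 0.01 over all tested genes. Ifit2 was the exception. Without KO library 1, 19 of the same 22 were positive, against 49.4% of tested genes, and their median was 0.36. In 5 members every KO library lay above every control library (Irf9, Ddx58, Rsad2, Trim25 and Dtx3l), a pattern seen in 12.8% of all tested genes. In 0 members did every KO library lie below every control library, a pattern seen in 11.5% of all tested genes. With KO libraries 2 and 3 alone set against the 3 controls, 7 of 22 lay above (the same 5, Bst2 and Gbp2), against 16.8% of all tested genes. KO library 1 held the highest value of the 6 libraries in 11 of the 22, against 24.3% of all tested genes.

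**Figure D1:**
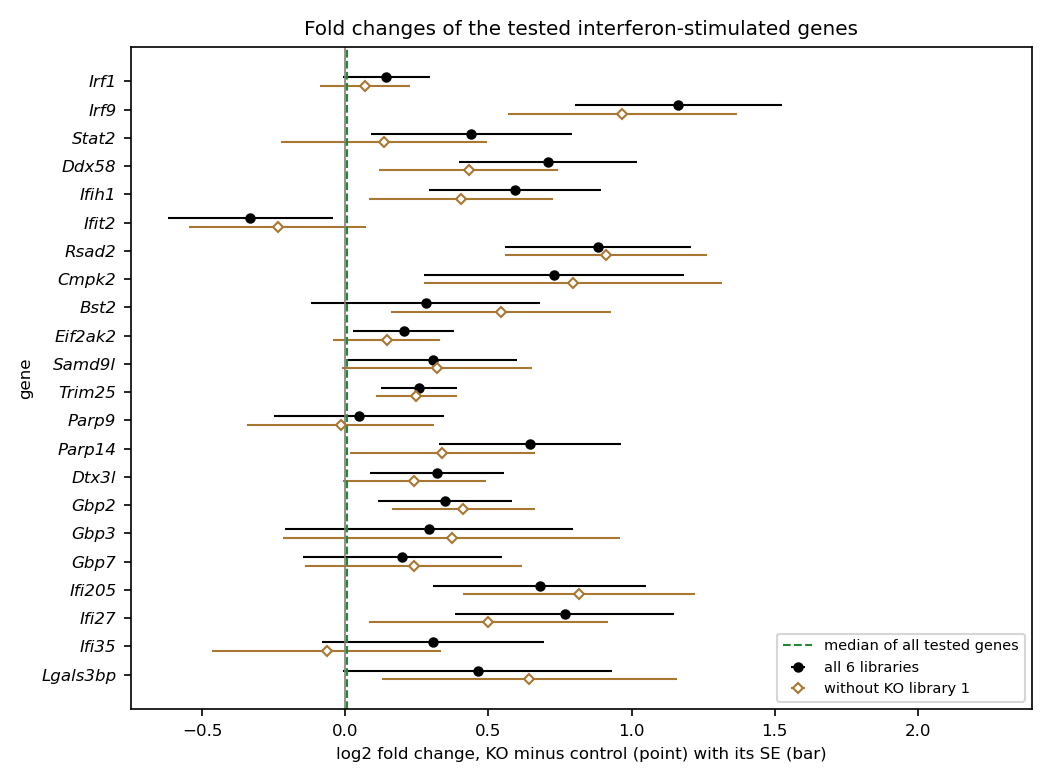
Log2 fold change (x axis, KO minus control, bar = SE) of each of the 22 tested interferon-stimulated genes (y axis), with all 6 libraries (black circles) and without KO library 1 (open diamonds). The dashed line is the median of all tested genes, 0.01, and 21 of the 22 black circles lie to the right of 0.

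Summed over the 22 tested members, control libraries 1 to 3 held 137, 132 and 142 CPM and KO libraries 1 to 3 held 192, 169 and 168 CPM. The KO libraries were all above the control libraries, and KO library 1 was the highest. The sums over the 22 untested members were 11.01, 5.636 and 14.59 CPM in control and 39.36, 23.2 and 17.2 CPM in KO libraries. Here too the groups did not overlap, with or without KO library 1, which alone supplied 42.4% of the KO counts of these genes. The gap was narrow between KO library 3, with 88 counts of these genes, and control library 3, with 79.

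**Figure D2:**
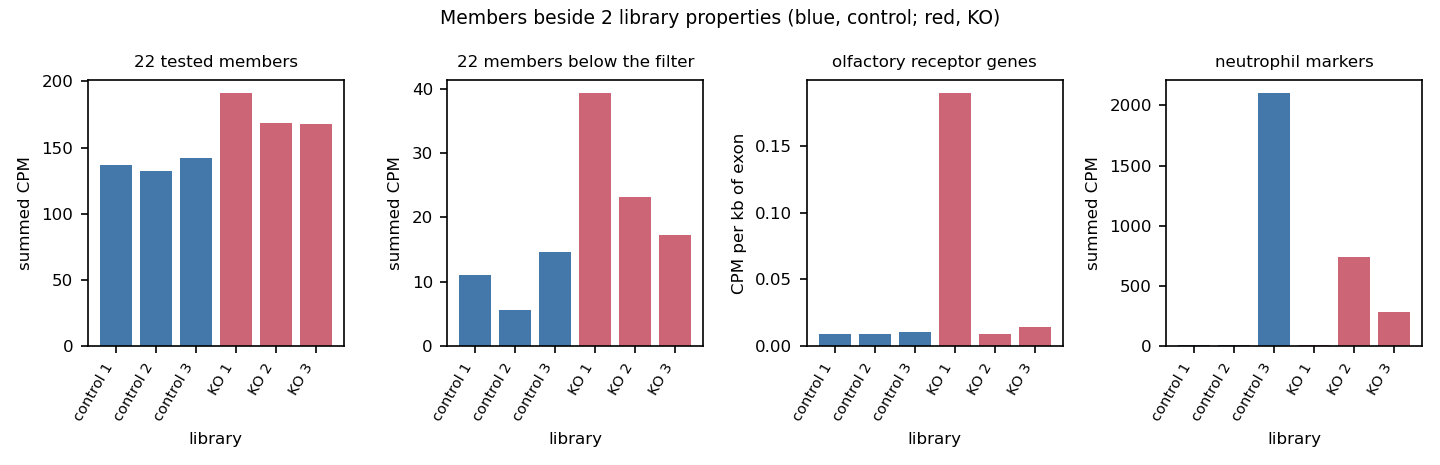
Bars give, for each of the 6 libraries, the summed CPM of the 22 tested members, the summed CPM of the 22 members below the filter, the level of the olfactory receptor genes in CPM per kilobase of exon, and the summed CPM of 12 neutrophil markers. KO library 1 is highest in the first 3 panels, at 192 CPM, 39.4 CPM and 0.190 CPM per kilobase, and control library 3 in the last, at 2106 CPM.

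Compared per kilobase of exon, the most abundant members were Irf1 (5.17 ± 0.23 CPM per kilobase in control and 5.74 ± 0.68 in KO cells, mean ± SD, n = 3 each), Trim25 (4.37 ± 0.29 and 5.21 ± 0.09) and Bst2 (3.56 ± 1.16 and 4.25 ± 1.70). Ifi27, Gbp2 and Eif2ak2 followed, at 2.49 to 2.96 CPM per kilobase in control cells. The neighbours Bst2, Ifi27 and Gbp2 differed by less than the spread of Bst2 over its libraries. The classical interferon markers Isg15, Oas2, Mx1, Ifi44, Usp18 and Dhx58 stood at the other end, each under 0.1 CPM per kilobase in control cells. Ifit2 was the most abundant IFIT gene at 1.62 ± 0.38 CPM per kilobase in control cells, above Ifit1 at 0.275 ± 0.219.

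**Figure D3:**
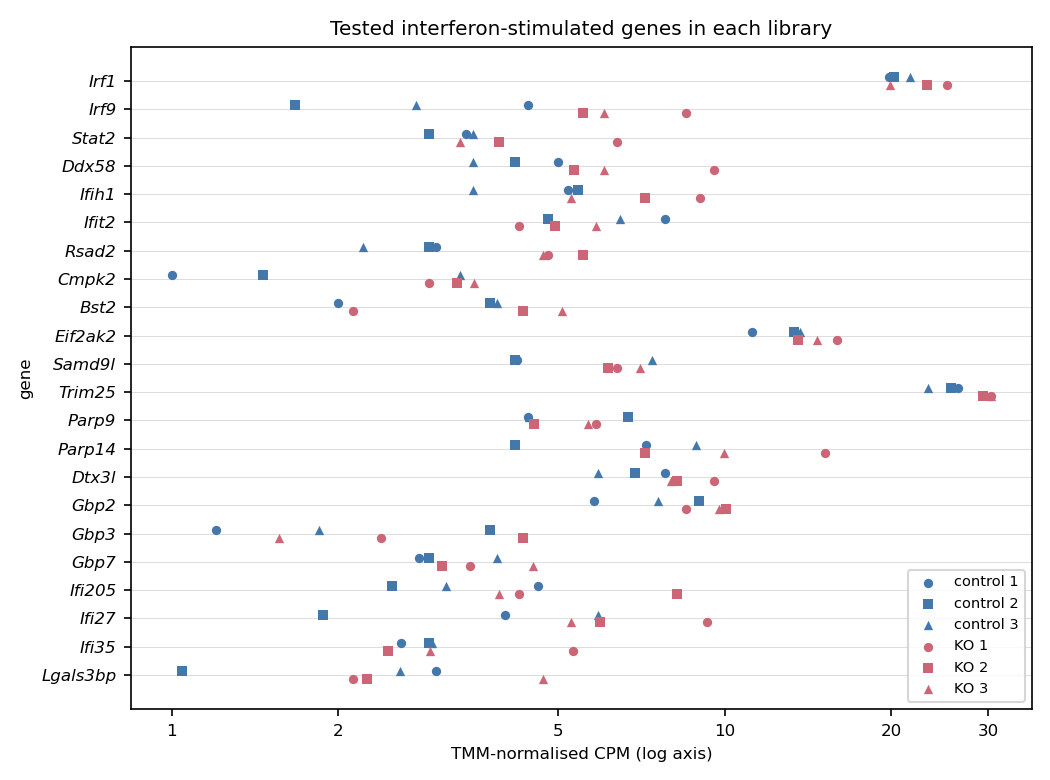
CPM of each of the 22 tested members (y axis, ordered by role) in each of the 6 libraries (x axis, log scale). Blue symbols are control and red symbols KO libraries, and the groups separate in Irf9, Ddx58, Rsad2, Trim25 and Dtx3l only.

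Among the transcription factors of the response, Irf9 showed the largest fold change of all tested members. Irf9 is the DNA-binding subunit of the complex that recognises the ISRE (ENSMUSG00000002325, chromosome 14, 55603571 to 55610030, plus strand, GRCm38). It was at 4.41, 1.67 and 2.77 CPM in control libraries 1 to 3 and at 8.51, 5.54 and 6.06 CPM in KO libraries 1 to 3. All KO values lay above all control values, with KO library 1 the highest and control library 2 the lowest. The log2 fold change was 1.16 (SE 0.36, adjusted p = 0.108), and it was 0.97 (SE 0.40, adjusted p = 0.333) without KO library 1.

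Stat2, a partner of Irf9 in the complex, showed a smaller difference. It was at 2.92 to 3.51 CPM in control and 3.32 to 6.38 CPM in KO libraries, where KO library 1 supplied the high value. Its log2 fold change was 0.44 (SE 0.35) with all libraries and 0.14 (SE 0.36) without KO library 1. Irf1, an early factor that also answers interferon gamma, was at 19.8, 20.2 and 21.6 CPM in control and 25.3, 23.2 and 19.9 CPM in KO libraries, and the groups overlapped (log2 fold change 0.14, SE 0.15, adjusted p = 0.668, and 0.07 without KO library 1). Irf7, the factor that amplifies interferon production, was not tested. It had 5, 1 and 4 counts in control and 15, 2 and 4 in KO libraries, so that KO libraries 2 and 3 lay within the control range.

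The cytosolic RNA sensors Ddx58 (RIG-I) and Ifih1 (MDA5) were both on the KO side. Ddx58 (ENSMUSG00000040296, chromosome 4, 40203773 to 40239828, minus strand) was at 5.01, 4.17 and 3.51 CPM in control and at 9.57, 5.34 and 6.06 CPM in KO libraries. The groups did not overlap, but KO library 2 exceeded control library 1 by little. The log2 fold change was 0.71 (SE 0.31, adjusted p = 0.251), and 0.43 (SE 0.31, adjusted p = 0.6001) without KO library 1, which moved it by more than any other single library. Ifih1 was at 3.51 to 5.43 CPM in control and 5.28 to 9.04 CPM in KO libraries, which overlap (log2 fold change 0.59, SE 0.30, adjusted p = 0.324, and 0.40 without KO library 1). Of the other sensors, Dhx58 (LGP2) had 2 counts in control and 4 in KO libraries, and the nucleic acid sensor Zbp1 had 13 and 14.

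The oligoadenylate synthetases make the messenger that activates RNase L, and none of the 5 reached the filter. Together they held 12, 6 and 19 counts in control libraries and 41, 25 and 36 in KO libraries. The KO sums were higher in every library, a count ratio of 3.05 after scaling by library size (exact 95% interval 2.07 to 4.57, counting error only). Oasl2 had 8, 4 and 11 counts in control and 21, 10 and 18 in KO libraries (ratio 2.36, interval 1.41 to 4.05), and after scaling KO library 2 at 2.05 CPM lay just above control library 3 at 2.03 CPM. Oasl1 had 0, 2 and 8 counts in control and 13, 11 and 10 in KO libraries (ratio 3.76, interval 1.82 to 8.53). Oas3 had 3, 0 and 0 counts in control and 5, 4 and 5 in KO libraries (ratio 5.16, interval 1.44 to 28.0). These 3 genes kept KO libraries 2 and 3 above every control library. Oas2 had 0 and 2 counts and Oas1a 1 and 3 in the respective groups, both at or under a floor of 3 counts. Oas1a shared 57.6% of its 50-base words with Oas1g, so the division of its reads is uncertain. In KO library 1, Oas3, Oas1a and Oas2 lay at or below the olfactory receptor level for a gene of their length.

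The IFIT proteins bind viral RNA that lacks host cap marks, and 1 of their 4 genes was tested. Ifit2, that gene, was at 7.81, 4.80 and 6.46 CPM in control and 4.26, 4.93 and 5.86 CPM in KO libraries. The groups overlapped and KO library 1 was the lowest (log2 fold change -0.33, SE 0.29, adjusted p = 0.586, and -0.24 without that library). Ifit1 had 7, 2 and 2 counts in control and 12, 13 and 10 in KO libraries, with no overlap (ratio 3.52, interval 1.75 to 7.68). Without KO library 1, 11 control counts over 3 libraries stood against 23 over 2. Ifit3 had 3 and 13 counts, of which KO library 1 held 9, and Ifit3b had 1 and 9. The sequence of Ifit3 and Ifit3b is shared over 51.2% and 45.0% of its words, mostly between the pair, so their counts cannot be assigned to either with certainty.

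Of the other antiviral effectors, Rsad2 (viperin), which makes a chain-terminating nucleotide, gave the steadiest separation. Rsad2 (ENSMUSG00000020641, chromosome 12, 26442746 to 26456452, minus strand) was at 3.00, 2.92 and 2.22 CPM in control and 4.79, 5.54 and 4.69 CPM in KO libraries. Every KO library lay above every control library, and KO library 1 did not stand out. The log2 fold change was 0.88 (SE 0.33, adjusted p = 0.177), and 0.91 (SE 0.35, adjusted p = 0.303) without KO library 1. Cmpk2, its neighbour on chromosome 12 and a nucleotide kinase, was at 1.00 to 3.33 CPM in control and 2.93 to 3.52 CPM in KO libraries (log2 fold change 0.73, SE 0.45, adjusted p = 0.426, and 0.80 without KO library 1). Control library 3 reached the KO values, and the groups overlapped.

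Bst2 (tetherin), which holds budding virus at the membrane, was at 2.00, 3.76 and 3.88 CPM in control and 2.13, 4.31 and 5.08 CPM in KO libraries. KO library 1 and control library 1 were the low values of their groups, so the groups overlapped (log2 fold change 0.28, SE 0.40, adjusted p = 0.760). The log2 fold change was 0.54 (SE 0.38) without KO library 1, and KO libraries 2 and 3 lay above every control library. Eif2ak2 (PKR), the kinase that stops translation, had a log2 fold change of 0.20 (SE 0.18; 0.15 without KO library 1), and Samd9l, another inhibitor of translation, of 0.31 (SE 0.30; 0.32 without it). Mx1 and Mx2, the dynamin-like GTPases, had 0 and 2 counts in control and 3 and 7 in KO libraries.

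In the ISG15 pathway and its neighbours, the modifier Isg15 itself had 0, 0 and 1 counts in control and 2, 2 and 1 in KO libraries (ratio 5.53, interval 0.619 to 261). Usp18, which removes it from proteins, had 0, 0 and 2 counts against 2, 2 and 3 (ratio 3.87, interval 0.737 to 38.2). The groups of both genes did not overlap, but the intervals include 1, and for Isg15 a single count each in KO library 3 and control library 3 stood at 0.195 and 0.185 CPM only through the scaling. Trim25, the ubiquitin ligase that activates RIG-I (ENSMUSG00000000275, chromosome 11, 88999376 to 89020293, plus strand), was at 26.4, 25.7 and 23.3 CPM in control and 30.3, 29.4 and 30.3 CPM in KO libraries. It was the best counted member, and its KO libraries lay close together above the controls (log2 fold change 0.26, SE 0.13, adjusted p = 0.339; 0.25 without KO library 1). Dtx3l, a ubiquitin ligase that works with Parp9, was at 7.81, 6.89 and 5.91 CPM in control and 9.57, 8.21 and 8.01 CPM in KO libraries, with no overlap (log2 fold change 0.32, SE 0.23, adjusted p = 0.512, and 0.24 without KO library 1). Parp9 showed a log2 fold change of 0.05 (SE 0.30) and -0.02 without KO library 1. Exons of Dtx3l and Parp9 overlap on opposite strands over 8.0% and 9.4% of their bases, and the strand setting of the counting is not given in the sources used here. Parp14, an ADP-ribosyltransferase, was at 4.17 to 8.87 CPM in control and 7.19 to 15.2 CPM in KO libraries (log2 fold change 0.65, SE 0.32, adjusted p = 0.317). The high Parp14 value was that of KO library 1, and without it the log2 fold change was 0.34 (SE 0.32).

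The guanylate-binding proteins, large GTPases that attack the vacuoles of pathogens, were all tested and showed log2 fold changes of 0.20 to 0.35. Gbp2 was at 5.81, 8.98 and 7.57 CPM in control and 8.51, 10.1 and 9.77 CPM in KO libraries. KO library 1 fell inside the control range, and the 2 other KO libraries lay above it (log2 fold change 0.35, SE 0.23, adjusted p = 0.465, and 0.41 without KO library 1). For Gbp3 the log2 fold change was 0.29 (SE 0.50), and for Gbp7 it was 0.20 (SE 0.35). They were 0.37 and 0.24 without KO library 1.

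The PYHIN genes belong to a family that includes sensors of DNA, and 1 of the 4 was tested. Ifi205 was at 4.606, 2.505 and 3.14 CPM in control and 4.26, 8.21 and 3.91 CPM in KO libraries. KO library 2 alone stood above the control range (log2 fold change 0.68, SE 0.37, adjusted p = 0.363, and 0.82 without KO library 1). Ifi203 was the only untested member with a lower KO mean, with 6, 3 and 23 counts in control and 10, 5 and 3 in KO libraries. Control library 3, which also held the highest sums of neutrophil and of macrophage and monocyte markers, supplied 23 of the 32 control counts of Ifi203. Ifi204 had 21 and 35 counts and Mndal 7 and 11 in the respective groups. Of the 50-base words of Ifi205, Ifi203 and Mndal, 18.6%, 12.2% and 19.6% also occur in other genes, and 14.8% of those of Ifi204 occur in its relative Ifi211 alone, so their reads may be divided uncertainly.

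Among the further interferon-induced genes, Ifi27, a mitochondrial protein gene, was at 4.005, 1.879 and 5.91 CPM in control and 9.31, 5.96 and 5.28 CPM in KO libraries. KO library 3 lay inside the control range (log2 fold change 0.77, SE 0.38, adjusted p = 0.317, and 0.50, SE 0.42, without KO library 1). Lgals3bp, a secreted glycoprotein gene, had a log2 fold change of 0.46 (SE 0.47), and of 0.64 without KO library 1. That of Ifi35 was 0.31 (SE 0.39), and -0.07 without KO library 1. Xaf1, a promoter of cell death, had 4, 5 and 7 counts in control and 13, 30 and 3 in KO libraries. Its ratio was 3.18 (interval 1.77 to 6.01), but KO library 3 was below every control library, so the interval does not describe the spread between animals. Rtp4 had 1, 0 and 1 counts against 4, 1 and 5 (ratio 5.53, interval 1.18 to 51.9), where the gap between a single count in KO library 2 and one in control library 1 came from the scaling alone. An overlapping gene holds 11.6% of its words. Ifi44 had 1 and 7 counts and Ifi27l2a 0 and 2.

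Read together, the 22 untested members had a higher KO mean in 21 and a lower one in Ifi203, and none held more than 30 counts in a library. Such a lean is common among scarce genes of these libraries. Of all 23684 genes below the filter with any count, 78.9% had a higher KO mean. Of the 5228 among them with at least 10 counts, 69.2% did. Of the 13 untested members with at least 10 counts, 12 did. Without KO library 1 that share was 50.4% for the 5228 genes, 9 of 13 for these members, and 17 of 22 for all untested members. Groups did not overlap, with KO higher, in 7 of the 22 (Oas3, Oasl1, Oasl2, Ifit1, Isg15, Usp18 and Rtp4). Of the 13, 5 were so separated, against 9.87% of the 5228 genes. With KO libraries 2 and 3 alone against the controls it was again 5 of 13, against 11.9%. The highest of the 6 libraries was KO library 1 in 14 of the 22 (63.6%) and in 50.1% of the 5228 genes. These sets are unlike, since 9 of the 22 held under 10 counts. For this share, and for 17 of 22 and 7 of 22 above, no share over all genes with any count was computed.

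**Figure D4:**
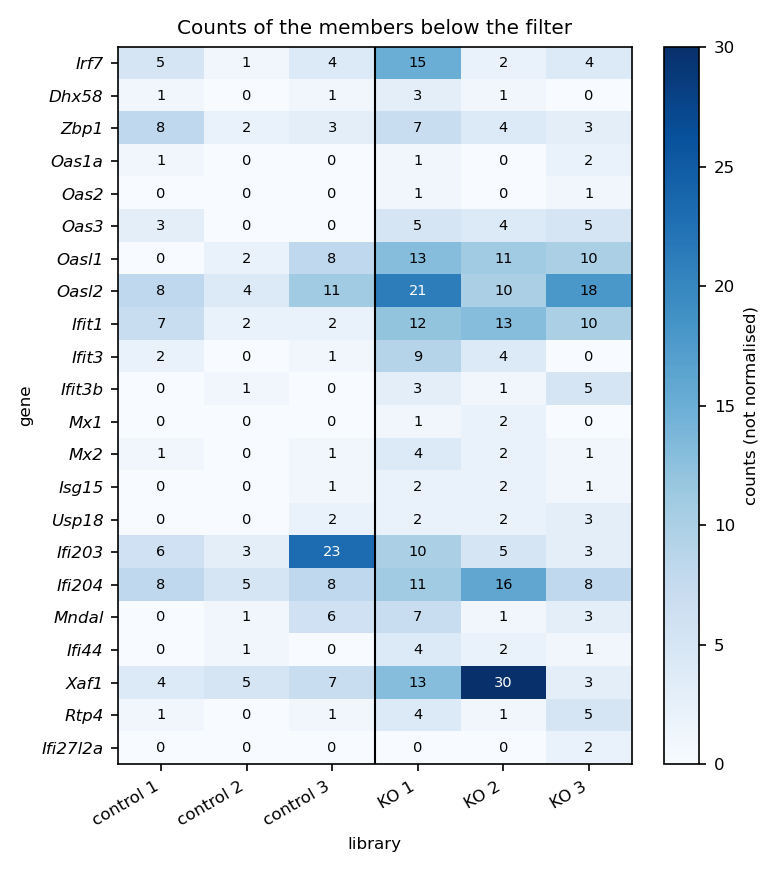
Raw counts of the 22 members below the filter (y axis) in each library (x axis), with the number printed in each cell and control and KO libraries parted by a line. Oasl1, Oasl2, Ifit1 and Oas3 are filled across the KO libraries, while Irf7 and Ifit3 are filled mainly in KO library 1 and Ifi203 in control library 3.

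The other genes of the pathway were read from the same fit. Of 21 interferon genes, none was tested and 11, Ifnb1 among them, had no count in any library. The other 10 shared 6 counts in control and 16 in KO libraries, of which 14, spread over 8 genes, came from KO library 1 and 1 each from KO libraries 2 and 3. Of 9 tested receptors and signal transducers, 0 were called in either direction, where 2.83% of all tested genes were. An unadjusted p under 0.05 was reached by 2 on the higher and 0 on the lower side, against 10.1% of all tested genes higher. The median log2 fold change was 0.26, against 0.01 over all tested genes. Ifnar1, the shared receptor chain, was at 45.1, 47.6 and 38.0 CPM in control and 60.1, 53.0 and 53.9 CPM in KO libraries, with no overlap (log2 fold change 0.35, SE 0.13, adjusted p = 0.159, and 0.30 without KO library 1). Jak1, its kinase, was at 120 to 126 CPM in control and 134 to 148 CPM in KO libraries, again without overlap, and its log2 fold change was 0.19 (SE 0.11, adjusted p = 0.400, and 0.19 without KO library 1). The receptor and its kinase were thus expressed in both groups, while the ligands were at or near 0.

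Of 11 tested inhibitors of the response, 0 were called, where 2.83% of all tested genes were. An unadjusted p under 0.05 was reached by 0 on the higher and 1 on the lower side, and the median log2 fold change was -0.18. Over all tested genes, 10.1% were higher and 857 of 11224 lower at that level. The log2 fold changes of the phosphatase genes Ptpn11 and Ptpn2 were both -0.21 (SE 0.12 and 0.17, adjusted p = 0.377 and 0.551), and -0.15 and -0.06 without KO library 1. Of 8 tested inducers of interferon, 1 was called higher, where 2.22% of all tested genes were: Ticam1, the adaptor of the RNA sensor Tlr3. The log2 fold changes of the 8 were positive in 5 and negative in 3, against 50.9% positive over all tested genes. Their median was 0.06. An unadjusted p under 0.05 was reached by 2 on the higher and 0 on the lower side, against 10.1% of all tested genes higher. Ticam1 was at 2.60, 1.46 and 2.22 CPM in control and 5.85, 5.75 and 5.47 CPM in KO libraries (log2 fold change 1.43, SE 0.34, adjusted p = 0.0363). Removing any single library ended this call (highest adjusted p 0.163), and neither DESeq2 (0.373) nor limma-voom (0.0555) made it. The groups did not overlap.

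Of 10 tested antigen presentation genes that interferon induces, 3 rose in KO cells, where 2.22% of all tested genes did, and 0 fell. At an unadjusted p under 0.05, 7 were higher, against 10.1% of all tested genes, and the median log2 fold change was 0.57, against 0.01. Tapbp, which loads peptides on class I molecules, was at 13.2, 15.4 and 18.3 CPM in control and 27.7, 26.3 and 23.4 CPM in KO libraries (log2 fold change 0.72, SE 0.16, adjusted p = 0.0296). The class I gene H2-D1 was at 32.8, 34.0 and 35.6 CPM in control and 60.6, 48.0 and 45.5 CPM in KO libraries, and H2-K1 at 22.8, 29.9 and 33.1 against 48.4, 41.9 and 40.8 CPM. They rose by log2 fold changes of 0.58 (SE 0.14, adjusted p = 0.0334) and 0.61 (SE 0.15, adjusted p = 0.0455). All KO values of the 3 genes lay above all control values. Removal of KO library 1 ended each call (adjusted p = 0.132, 0.151 and 0.186), as did removal of KO library 2 or of either of the first 2 controls. The calls of Tapbp and H2-K1 also ended when KO library 3 was removed. Neither DESeq2 (adjusted p = 0.311, 0.224 and 0.300) nor limma-voom (0.0546, 0.0687 and 0.0772) made any of the 3 calls. B2m, the shared light chain, was not called (log2 fold change 0.02, SE 0.15, adjusted p = 0.960, and 0.08 without KO library 1). The 3 called genes lie together on chromosome 17, between 33915899 and 35267499. Tap1 and Tap2, both among the 7, lie there too (log2 fold change 0.85 and 1.21). Elsewhere, Psme1 and Psme2, near Irf9 on chromosome 14, had 0.405 and 0.555, and Psmb10 and Erap1 had -0.38 and -0.11. The part of shared position in these values was not tested.

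Of 4 tested interferon-induced GTPases outside the list, 0 were called in edgeR, where 2.83% of all tested genes were. Irgm1 and Irgm2 were higher at an unadjusted p under 0.05, against 10.1% of all tested genes (log2 fold change 0.66, SE 0.22, and 1.03, SE 0.39). These were 0.67 and 0.88 without KO library 1. Of 20 tested other interferon-induced genes, 1 was called higher (Ifitm3) and 1 lower (Slfn9), against 249 and 69 of 11224 tested genes. An unadjusted p under 0.05 was reached by 7 on the higher and 1 on the lower side. Over all tested genes, 10.1% were higher and 857 of 11224 lower at that level. The median log2 fold change of the 20 was 0.24. Ifitm3, which blocks the entry of virus, was at 70.3, 92.9 and 106 CPM in control and 135, 134 and 131 CPM in KO libraries (log2 fold change 0.57, SE 0.14, adjusted p = 0.0423). Slfn9, a Schlafen gene, was at 97.3, 98.7 and 89.6 CPM in control and 43.6, 42.1 and 71.3 CPM in KO libraries (log2 fold change -0.86, SE 0.19, adjusted p = 0.0363). For Ifitm3, removal of each library except control library 3 ended the call (highest adjusted p 0.159), and neither DESeq2 (0.0962) nor limma-voom (0.0732) made it. For Slfn9, removal of each library except KO library 3 did so (highest adjusted p 0.180), and both DESeq2 (0.00468) and limma-voom (0.0339) made the call. Without KO library 1, 0 genes of these pathway lists were called by edgeR, where 152 of 11532 tested genes were. In that fit 5 of 10 antigen presentation genes were higher at an unadjusted p under 0.05, against 7.53% of all tested genes. Their median log2 fold change was 0.44.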

How the data were processed

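RNA of muscle stem cells was sequenced from 3 control and 3 KO samples. The labels' protocols describe depletion of ribosomal RNA and a stranded kit with paired reads, but also a SMARTER kit, and which was used is not settled. The submitters' processing notes list STAR, Salmon, DESeq2 1.34.0 and GRCm38. The counting tool, its strand setting and its annotation are not stated there or in the labels. The deposited table holds unnormalised counts, whole numbers for each Ensembl gene.

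Symbols came from a table of Ensembl gene names (55141 of 55487 genes; the rest held 0.03% of counts) and coordinates from GENCODE M21. Counts were tested with edgeR 4.0.16 in R 4.3.3 (TMM, default low-count filter, robust quasi-likelihood fit, two-sided, Benjamini-Hochberg adjustment over the 11224 genes kept, threshold 0.05), after a check on simulated data. P-values measure the spread between these samples. Count ratios of untested genes use counts summed over libraries with exact conditional 95% intervals, which cover counting error only, as the labels name no molecular identifiers. Levels per kilobase use merged exon length. Shared sequence is the percent of 50-base words found in other genes' transcripts. No 2 libraries of a group agreed within sampling noise.

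The members and lists were chosen with earlier results of these data known. Values of every library are given for members with an unadjusted p under 0.05, for tested and untested members whose groups do not overlap, and for the tested member with the highest level per kilobase in each role. In each pathway list the passing genes, or else the 2 with the highest level, are named, together with Ifnb1, Ifnar1 and Setdb1. A gene that the rule also names and a cell type marker are not reported here. Others named were chosen after their values were seen, as were the olfactory receptor genes. Alternatives were DESeq2 size factors, upper quartile factors, library totals, no filter, 1 CPM in 3 libraries, DESeq2 1.42.0, limma-voom (limma 3.58.1), a replicate block, removal of structural RNA genes, each library left out, and removal of the libraries with S100a9. Values of untested members and pathway lists without KO library 1 were added after seeing the data. Other steps ran in Python 3.11.15 (pandas 2.3.3; SciPy 1.17.1; figures in matplotlib 3.10.9).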

Additional observations from a re-analysis of the deposited data

How the results depend on the processing

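No member was called under any alternative but 1. Removing the 3 libraries that hold S100a9 left control libraries 1 and 2 against KO library 1 alone, whose spread is assumed to be like that of the controls. There 1282 of 12155 genes (10.5%) were called, and the members called numbered 3 of 29 tested (Ifi27 at a log2 fold change of 1.60, Oasl1 and Parp14). The members' median was 0.71 and Bst2 reversed to -0.48. The whole KO side of that comparison is the library with counts in most olfactory receptor genes, and the cause of the calls was not tested. With no low-count filter 511 genes were called. There 42 of 44 members were positive with a median of 0.77, beside 68.2% positive and a median of 0.42 over all genes. The minimum of 1 CPM in 3 libraries gave a median of 0.44 over 28 members. These settings test more of the scarce members, and over the same 22 members the medians were 0.29 and 0.32. DESeq2 called 184 genes and limma-voom 200. Leaving out 1 library gave 152 to 345 genes called and members' medians of 0.35 to 0.58. Over the same 22 members 19 to 21 were positive, against 49.1% to 52.8% of all tested genes. Control samples 1 to 3 and KO samples 1 to 3 share numbers. Same-numbered residuals correlated at 0.14, -0.09 and -0.06, and those of control sample 3 and KO sample 2 at 0.29. With 3 samples in each group, these values cannot settle whether the numbers pair them. The fit with a replicate block called 247 genes and 0 members. It placed 5 members higher at an unadjusted p under 0.05, and the share of all genes at that level was not computed for this fit. Depth limits the 22 untested members, none of which exceeded 30 counts in a library.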
